A study of Mus musculus with 3 samples.

Results

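The 39 genes described here are interferon-stimulated genes of the mouse, chosen by name. All 39 were found by gene name among the 57180 genes of the deposited table, and 38 of them had a count in at least 1 library. Messenger RNA was measured in 3 libraries of wild-type (WT) cells of the mouse vestibule, the inner ear's organ of balance, picked for looking like black balls. The labels call them macrophages, while the title of the series speaks of melanocytes, the pigment cells. The 18 cells came from 9 mice, 3 mice to a group, and the sources used here do not say which cells or mice went into which library, nor the strain, age and sex. The libraries form 1 group with no untreated or other control, so they are described as 3 replicates, and whether any gene stood above a resting level cannot be asked.

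Interferons are secreted proteins that warn cells of virus or other microbes. Type I and type III interferons bind their receptors, the kinases JAK1 and TYK2 become active, and STAT2 and IRF9 enter a complex called ISGF3, which binds a DNA element called the ISRE near the starts of its target genes. Interferon gamma acts mainly through a different element, the GAS. The target genes encode sensors of foreign RNA, proteins that block viral entry, translation or replication, and regulators that amplify or shut off the response. Macrophages are a well known source of such transcripts.

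Stretches of DNA around the start of 7 members show what letters like those of the ISRE look like in their promoters. The bases below are RefSeq promoter sequence of build GRCm38.p6, written 5′ to 3′ on the strand of the gene, for the 7 members with the highest mean level among those with an ISRE-like match. They were picked for having one: Ifi27l2a and Ifi27 have no window in the table used, and Ifi35 and Ifitm1 have windows without a match. Capitals mark the ISRE-like letters GAAANNGAAA or, read on the other strand, TTTCNNTTTC. The stretches lie at chr19:34640749-34640848 (plus strand) for Ifit1, chr19:34583345-34583444 (plus) for Ifit3, chr19:34607741-34607840 (plus) for Ifit3b, chr4:156200836-156200935 (minus) for Isg15, chr8:71537545-71537644 (minus) for Bst2, chr7:140955953-140956052 (minus) for Ifitm2 and chr7:141010695-141010794 (minus) for Ifitm3.
Ifit1: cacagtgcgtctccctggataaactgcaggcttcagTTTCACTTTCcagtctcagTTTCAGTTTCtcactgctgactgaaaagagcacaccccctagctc
Ifit3: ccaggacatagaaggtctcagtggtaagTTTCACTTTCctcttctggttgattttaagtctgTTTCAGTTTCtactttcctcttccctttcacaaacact
Ifit3b: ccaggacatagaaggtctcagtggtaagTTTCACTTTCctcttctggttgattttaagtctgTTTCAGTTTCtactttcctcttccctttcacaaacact
Isg15: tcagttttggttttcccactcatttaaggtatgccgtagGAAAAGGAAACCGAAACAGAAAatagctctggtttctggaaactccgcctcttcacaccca
Bst2: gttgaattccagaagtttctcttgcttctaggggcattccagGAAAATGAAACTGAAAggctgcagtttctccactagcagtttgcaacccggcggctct
Ifitm2: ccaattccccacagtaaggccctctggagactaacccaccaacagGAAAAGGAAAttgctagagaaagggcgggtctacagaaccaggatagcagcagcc
Ifitm3: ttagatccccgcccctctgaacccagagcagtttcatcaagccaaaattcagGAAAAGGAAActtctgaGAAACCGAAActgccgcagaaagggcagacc

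The Ifitm3 matches begin 2 and 19 bases after its annotated start, and those of the other 6 lie before the start. Bases just after the start stood in an annotated transcript of the gene for Ifit1, Ifit3 and Isg15. They did not for Ifit3b, Bst2, Ifitm2 and Ifitm3, so positions relative to transcription are uncertain for these genes. Ifit1 and Ifit3 each held a pair of separate matches, Isg15 held 3 overlapping matches in a row and Bst2 held 2 overlapping ones. The stretches of Ifit3 and Ifit3b were identical at 100 of 100 bases. Promoter windows of 250 bases before to 50 bases after the start were given for 29 members, in 36 windows. An ISRE-like match was in 15 of these 36 windows (41.7%) and in 1131 of all 32851 mouse windows of the same length (3.44%). The GAS-like letters TTCNNNGAA, which read the same way on either strand and may overlap an ISRE-like match, were in 8 of the 36 windows (22.2%) and in 2726 of all windows (8.30%). A match is a run of letters and not a measured binding site.

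Levels are given as TPM, which is the deposited FPKM scaled so that every library has 1 common sum, and which corrects for gene length. The libraries held 18460546, 15086854 and 14095521 counts in replicates 1, 2 and 3, and between 22094 and 22376 genes with a count. At these depths 3 counts correspond to 0.163, 0.199 and 0.213 CPM, a count scaled by the total of its library. The median mean level of all 39 members, with Oas3 at 0, was 12.4 TPM, against 2.24 TPM for all 27265 genes with a count. Levels were tested by a one-sided limma test of log2(TPM + 1), with Benjamini-Hochberg adjustment over all those genes. By this test 31 of the 38 members with a count were above 1 TPM, beside 37.6% of all genes. Since no label ties a library to its mice, the spread behind these p-values is that between 3 libraries and may be technical. Of the 31 calls, 16 held without each replicate in turn, and the share for all genes was not counted. The other calls, named with their genes below, ended for 10 members without replicate 1 (adjusted p by limma between 0.0548 and 0.24), for 11 without replicate 2 (0.0544 to 0.256) and for 9 without replicate 3 (0.0545 to 0.195).

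**Figure D1:**
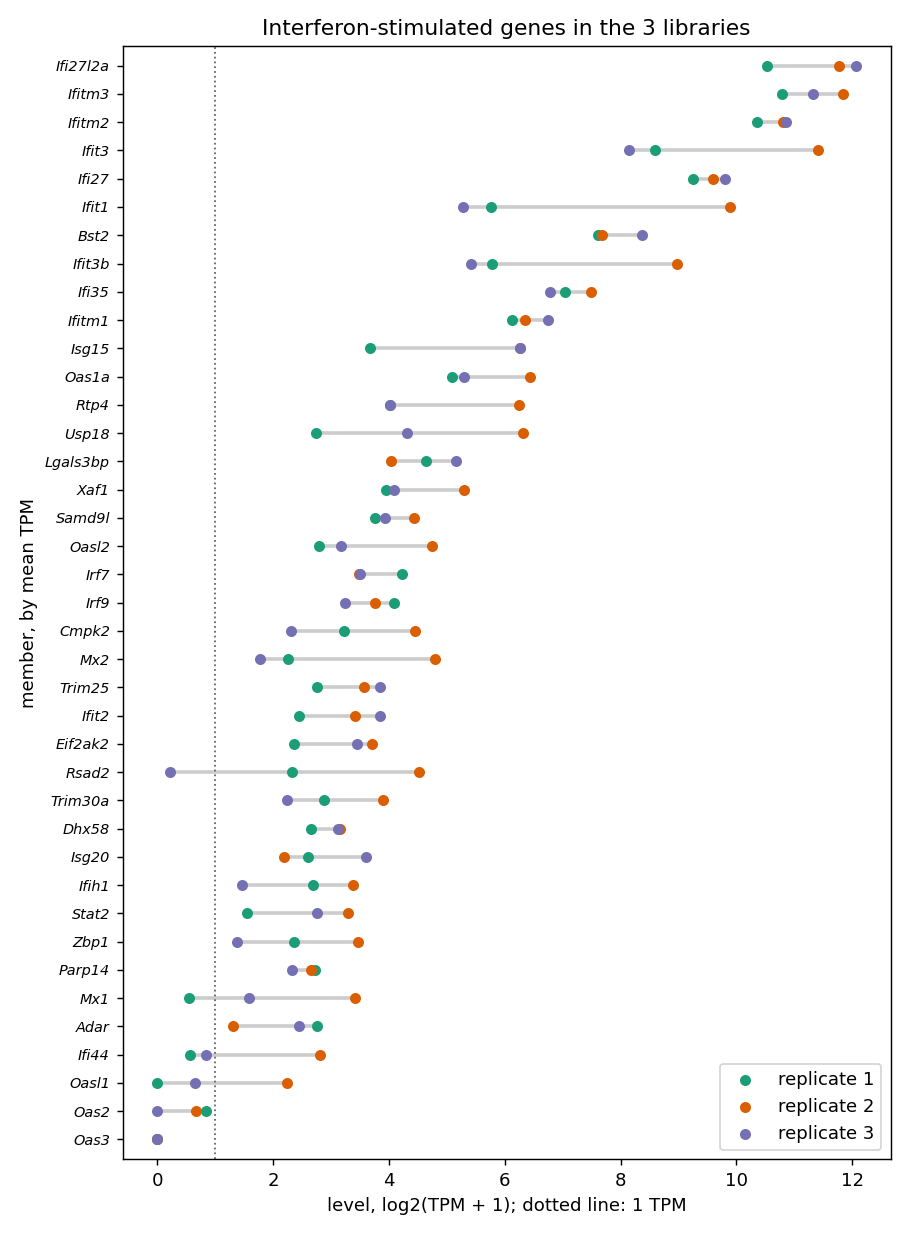
Level of each of the 39 interferon-stimulated genes as log2(TPM + 1), 1 point per library coloured by replicate, a grey line from the lowest to the highest library, and genes from top to bottom by mean TPM; the dotted line marks 1 TPM. Ifi27l2a, Ifitm3 and Ifitm2 lead, Oas3 has no count in any library, and replicate 2 lies far to the right of the other libraries for Ifit3, Ifit1 and Ifit3b.

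The levels spanned more than 3 powers of 10 and ran over into each other. In the order of mean TPM, the library ranges of 36 of the 37 pairs of neighbouring members overlapped. The exception was Ifi35, whose lowest library lay above the highest library of Ifitm1. The order therefore separates the top of the list from its bottom but not one gene from the next.

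Whether a member differed between libraries was described by a rule without a test, since each library is 1 sample. A gene with a mean of at least 10 counts differed where its highest and lowest library were at least 2-fold apart in TPM and the 95% exact Poisson intervals of their counts, which cover counting error only, did not overlap. By this rule 28 of the 38 members differed (73.7%), and 65.8% of all 18369 genes with enough counts did too, so differing between these libraries was common. Among the members that differed, the highest library was most often replicate 2. Of the 38 members, 20 differed by the rule with replicate 2 highest (52.6%), as did 15.7% of all genes. A further 6 members differed with replicate 3 highest, beside 23.2% of all genes, and 2 with replicate 1 highest, beside 27.0% of all genes. Counting also members that did not pass the rule, replicate 2 was highest in 23, replicate 3 in 10 and replicate 1 in 5. Over all 18369 genes with enough counts, replicate 2 was highest in 4322, replicate 3 in 6459 and replicate 1 in 7588. At 4-fold the numbers were 15 members highest in replicate 2 (9.16% of all genes), 1 in replicate 3 (12.4%) and 1 in replicate 1 (13.9%). In 16 members, and in 6.39% of all genes, replicate 2 was highest and at least 2-fold above the second library. Without replicate 2 the number that differed was 15, beside 43.1% of all genes.

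Summed over the members, 0.289%, 0.862% and 0.473% of all counts fell on these genes in replicates 1, 2 and 3. Their median level was 6.39, 20.7 and 11.2 TPM in the same libraries. In bulk libraries such as these, fewer cells with a transcript and less of it per cell cannot be told apart.

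**Figure D2:**
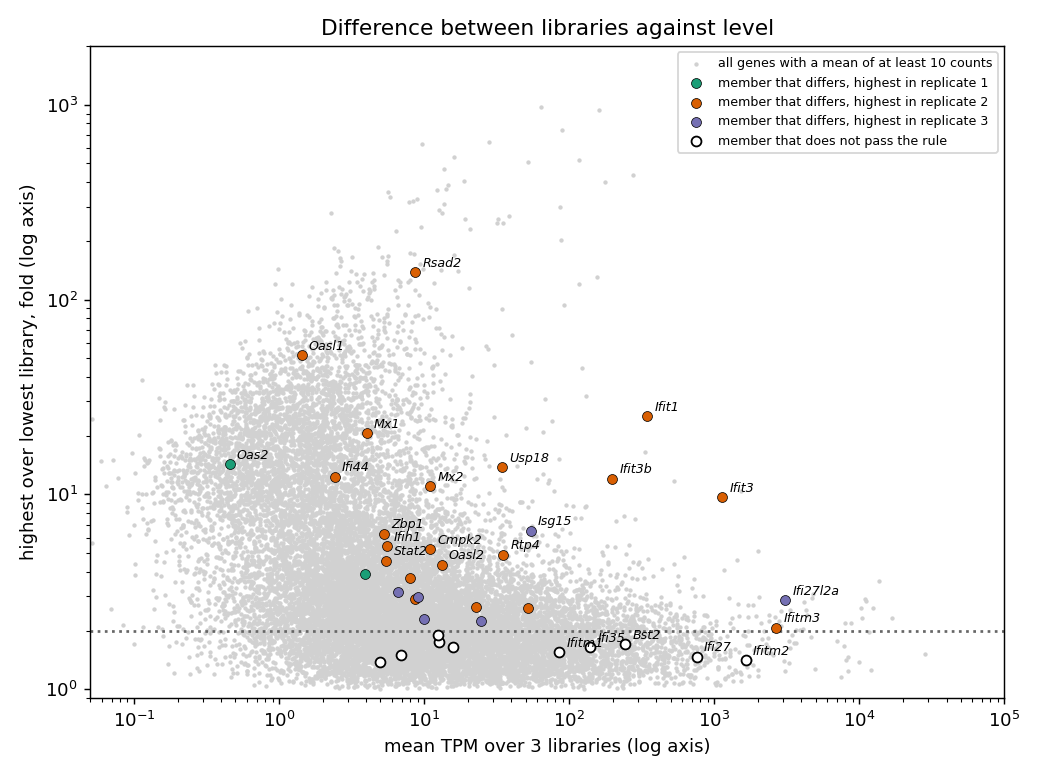
Highest over lowest library in fold against mean TPM, both on log axes; large points are the 38 members with a count, coloured by the highest library where they differ by the rule and white where they do not, grey points are all genes with a mean of at least 10 counts, and the dotted line marks 2-fold. Rsad2 has the widest range of the members (138-fold), Ifit1, Ifit3b and Ifit3 lie above most genes of their level, and the folds of Oasl1 and Oas2 are lower limits.

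The IFIT proteins bind foreign RNA and hinder its translation, and 3 of their 4 genes were far higher in 1 library than in the others. Ifit1 (GRCm39 chr19:34618271-34627409) had 53.3, 949.6 and 37.6 TPM in replicates 1, 2 and 3, from 1051, 17042 and 661 counts. Replicate 2 stood 17.8-fold above the second highest library, and the other 2 lay close together. Ifit3 (chr19:34560931-34566131), a partner that stabilises IFIT1 in humans, had 384, 2734 and 282 TPM. Ifit3b (chr19:34585370-34590801), its near-identical copy, had 53.9, 501 and 41.7 TPM. Both were again high in replicate 2 alone, 7.13-fold and 9.30-fold above the second library. The sources used here do not say how reads that match both copies were assigned, so the split between Ifit3 and Ifit3b is uncertain.

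Ifit2 (chr19:34528094-34553819), which lies in the same cluster, did not share this order, with 4.47, 9.59 and 13.3 TPM and its highest value in replicate 3. All 4 IFIT genes were above 1 TPM by limma, with adjusted p of 0.00019 for Ifit3, 0.00118 for Ifit3b, 0.00265 for Ifit1 and 0.00334 for Ifit2. The call for Ifit1 ended without replicate 1 (adjusted p 0.0796 by limma) and without replicate 3 (0.0545), that for Ifit3b without replicate 1 (0.0593), and that for Ifit2 without replicate 2 (0.0749) and without replicate 3 (0.055). On the 4 genes together fell 0.0377% of all counts in replicate 1, 0.373% in replicate 2 and 0.0345% in replicate 3.

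ISG15 is a ubiquitin-like protein that is joined to other proteins and also released from cells, and USP18 removes it and blocks the type I receptor. Isg15 (chr4:156283912-156285253) had 11.7, 75.4 and 76.1 TPM in replicates 1, 2 and 3, from 61, 358 and 354 counts. Here replicate 1 stood apart and the other 2 did not differ beyond counting error. Usp18 (chr6:121222865-121247876) had 5.67, 78.3 and 18.9 TPM, a 13.8-fold range with replicate 2 highest. Both were above 1 TPM by limma (adjusted p 0.00129 for Isg15 and 0.00644 for Usp18), and both calls ended without replicate 2 (0.0624 and 0.0644) and without replicate 3 (0.0624 and 0.124).

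Among the signalling members, the partners of ISGF3 did not move together. Stat2 had 1.92, 8.80 and 5.76 TPM, a 4.58-fold range with replicate 2 highest. Irf9, the DNA-binding part of ISGF3, had 16.1, 12.5 and 8.498 TPM and did not differ by the rule. Irf7 (chr7:140842619-140846394), the factor that drives interferon alpha genes, had 17.8, 10.1 and 10.3 TPM and did not differ either. Both Irf7 and Irf9 were highest in replicate 1, where most members of the list were lower than in replicate 2. Irf7, Irf9 and Stat2 were above 1 TPM by limma (adjusted p 0.000501, 0.000538 and 0.0298). The call for Stat2 ended without replicate 2 (0.226) and without replicate 3 (0.195), and with a pseudocount of 5 (0.0664). The length by which the authors divided was 2.71 times the length of the exons of Irf7 taken once, so its level is 27.8 TPM on that length against 12.7 TPM as deposited.

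The sensors of RNA and DNA were low and varied. Ifih1 (MDA5), which binds long double-stranded RNA, had 5.43, 9.42 and 1.74 TPM. Dhx58 (LGP2), its helicase relative, had 5.30, 7.92 and 7.67 TPM and was the 1 sensor of 5 that did not differ. Zbp1, a sensor of left-handed nucleic acid that can trigger cell death, had 4.13, 10.05 and 1.59 TPM. Ifih1 and Zbp1 shared the order of replicate 2 over 1 over 3. Trim25, the ubiquitin ligase that activates RIG-I, had 5.79, 10.8 and 13.4 TPM, and Eif2ak2 (PKR), a kinase that stops translation when it binds double-stranded RNA, had 4.16, 12.1 and 9.87 TPM. In both, replicate 1 was the lowest. Zbp1 did not pass the 1 TPM test (adjusted p 0.0541 by limma). By limma Zbp1 passed with a pseudocount of 0.1 (0.0231), against 1 CPM (0.00965) and among genes with a count in all 3 libraries (0.0246). Ifih1 passed (0.0369) but not without replicate 1 (0.24), without replicate 2 (0.256), on exon-union lengths (0.0571) or with a pseudocount of 5 (0.0761). Eif2ak2 passed (0.00385) but not without replicate 2 (0.0737) or without replicate 3 (0.0741). Dhx58 (0.0025) and Trim25 (0.00157) passed without each replicate in turn.

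OAS enzymes sense double-stranded RNA and make the short oligoadenylates that switch on RNase L. Oas1a (chr5:121034319-121045584) had 32.9, 85.7 and 38.3 TPM in replicates 1, 2 and 3, and Oasl2, an OAS-like protein, had 5.91, 25.7 and 8.05 TPM. In both, replicate 2 lay over the other 2 libraries, which were close to each other. Oasl1, a translational brake on Irf7 in mouse cells, had 0, 141 and 21 counts (0, 3.73 and 0.567 TPM). Setting replicate 1 to 3 counts, or 0.0722 TPM, its range was at least 51.6-fold. Oas2 had 48, 32 and 0 counts and its highest level, 0.788 TPM, in replicate 1, a range of at least 14.3-fold with the same floor. Its replicates 1 and 2 did not differ beyond counting error, so only replicate 3 stood apart. Oas3 had no count in any library. Of these 5 genes, Oas1a and Oasl2 were above 1 TPM by limma (adjusted p 0.000105 and 0.00402), the call for Oasl2 ending without replicate 1 (0.0567) and without replicate 3 (0.073). Reads of Oas1a may be shared with its close relatives.

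Genes that act on RNA or nucleotides in other ways gave the widest range of all. Rsad2 (viperin, chr12:26492745-26506451), which makes a chain-terminating nucleotide, had 3.99, 21.8 and 0.158 TPM, from 227, 1129 and 8 counts. Replicate 2 was 138-fold above replicate 3 and 5.46-fold above replicate 1, so all 3 libraries were apart. Cmpk2 (chr12:26519203-26529836), a nucleotide kinase next to Rsad2 on the chromosome, had the same order with 8.32, 20.8 and 3.96 TPM, a smaller range of 5.25-fold. Isg20, an exonuclease, was highest in replicate 3 with 5.09, 3.56 and 11.2 TPM. Adar, which edits adenosines in double-stranded RNA, was lowest in replicate 2 with 5.72, 1.46 and 4.45 TPM. Adar was therefore 1 of 2 members past the rule that were highest in replicate 1. The other was Oas2, whose lead over replicate 2 was within counting error. Cmpk2 and Isg20 passed the 1 TPM test by limma (adjusted p 0.00697 and 0.0103), Cmpk2 not without replicate 1 (0.122) or replicate 2 (0.0767) and Isg20 not without replicate 1 (0.108), 2 (0.0544) or 3 (0.0765). Rsad2 (0.195) and Adar (0.0682) did not pass, though both passed 1 CPM, without gene length (0.0494 and 0.000799). Adar also passed by limma with a pseudocount of 0.1 (0.0313), among genes with a count in all 3 libraries (0.0273) and without the trend (0.0448).

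The Mx GTPases trap viral nucleocapsids. Mx2 (chr16:97336508-97362100) had 3.80, 26.7 and 2.42 TPM and Mx1 (chr16:97248235-97264107) had 0.467, 9.60 and 1.99 TPM, from 21, 393 and 80 counts. Both were highest in replicate 2, 11.01-fold and 20.6-fold above their lowest library, though the lowest library was replicate 3 for Mx2 and replicate 1 for Mx1. Mx1 did not pass the 1 TPM test (adjusted p 0.266 by limma). Mx2 passed with an adjusted p of 0.042 by limma, which became 0.202, 0.209 and 0.125 without replicates 1, 2 and 3, 0.105 on exon-union lengths, 0.0969 with a pseudocount of 5 and 0.0694 without the trend.

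The membrane proteins were abundant and even. IFITM proteins sit in the plasma membrane and endosomes and block the fusion of enveloped viruses. Ifitm3 (chr7:140589499-140590683) had 1777, 3685 and 2572 TPM, Ifitm2 (chr7:140534750-140535900) had 1311, 1785 and 1850 TPM, and Ifitm1 (chr7:140547134-140549738) had 68.7, 80.3 and 106 TPM. Bst2 (tetherin, chr8:71986899-71990100), which holds budding virus at the cell surface, had 194, 204 and 331 TPM. Ifitm3 alone of these 4 differed by the rule, just past it at 2.07-fold, while the others ranged by 1.41-fold (Ifitm2), 1.55-fold (Ifitm1) and 1.70-fold (Bst2). All 4 were above 1 TPM by limma with an adjusted p of at most 1.58e-05.

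The ISG12 genes encode small hydrophobic mitochondrial and membrane proteins and lie side by side on chromosome 12. Ifi27l2a (chr12:103408426-103409939) had the highest mean of the members, 3087 ± 1439 TPM (SD, n = 3), from 1486, 3502 and 4273 TPM. It led in replicate 3 only, Ifitm3 being higher in replicates 1 and 2. Ifi27 (chr12:103400470-103406498) had 606, 775 and 892 TPM, a mean of 758 ± 143 TPM (SD, n = 3). Both were lowest in replicate 1 and highest in replicate 3. The range was 2.88-fold for Ifi27l2a, which differed by the rule, and 1.47-fold for Ifi27, which did not. Both were above 1 TPM by limma (adjusted p 1.79e-05 and 1.3e-05).

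The remaining 8 members have varied roles. Ifi35, a partner of NMI that can be released as a danger signal, had 131, 179 and 109 TPM. Rtp4 (chr16:23339041-23432972), a chaperone of receptors that also binds viral RNA, had 15.3, 74.99 and 15.3 TPM, replicate 2 being 4.91-fold above the others. Xaf1, which promotes cell death, had 14.4, 38.1 and 16.1 TPM, again with replicate 2 above 2 close libraries. Ifi44 was low with 0.484, 5.97 and 0.784 TPM, from 27, 303 and 39 counts, a 12.3-fold range and the same pattern.

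Trim30a, a mouse TRIM protein known to dampen Toll-like receptor signalling, had 6.39, 13.9 and 3.73 TPM. Lgals3bp, a secreted galectin-binding glycoprotein, was lowest in replicate 2 with 23.8, 15.4 and 34.7 TPM. Samd9l, a brake on translation, and Parp14, an ADP-ribosyltransferase, did not differ by the rule. Samd9l had 12.6, 20.7 and 14.2 TPM and Parp14 had 5.58, 5.28 and 4.02 TPM, the narrowest range of the list at 1.39-fold. Of the 8 genes, Ifi44 did not pass the 1 TPM test (adjusted p 0.49 by limma). Ifi35, Xaf1, Samd9l and Lgals3bp passed without each replicate in turn. The calls for Rtp4 (adjusted p 0.00144 by limma, 0.0548 without replicate 1), Trim30a (0.00774, 0.11 without it) and Parp14 (0.00892, 0.0822 without it) ended without replicate 1, and those for Trim30a (0.0861) and Parp14 (0.081) also without replicate 2.

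The 10 members that did not pass the rule had ranges between 1.39-fold and 1.89-fold. They were Ifitm2, Ifi27, Bst2, Ifi35, Ifitm1, Samd9l, Irf7, Irf9, Dhx58 and Parp14. The 20 members that differed with replicate 2 highest ranged from 2.07-fold to 138-fold with a median of 5.86-fold, and the 6 with replicate 3 highest from 2.26-fold to 6.51-fold. Of members with a promoter window, an ISRE-like match was found for 10 of 15 that differed with replicate 2 highest and for 4 of the other 14. Both kinds are among the stretches printed above: Ifit1, Ifit3, Ifit3b and Ifitm3 were highest in replicate 2, and Isg15, Bst2 and Ifitm2 in replicate 3. Isg15 and Ifitm2 were highest in another library under TMM or DESeq2 scaling, with replicates 2 and 3 close to each other. The 4 others with a match include Oas3, which had no count in any library. Ifit3 and Ifit3b, whose printed stretches are identical, are counted separately among the 10. Usp18, Rtp4, Mx2, Mx1 and Zbp1 also differed with replicate 2 highest but have no window. Whether a match goes with a library was not tested.

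**Figure D3:**
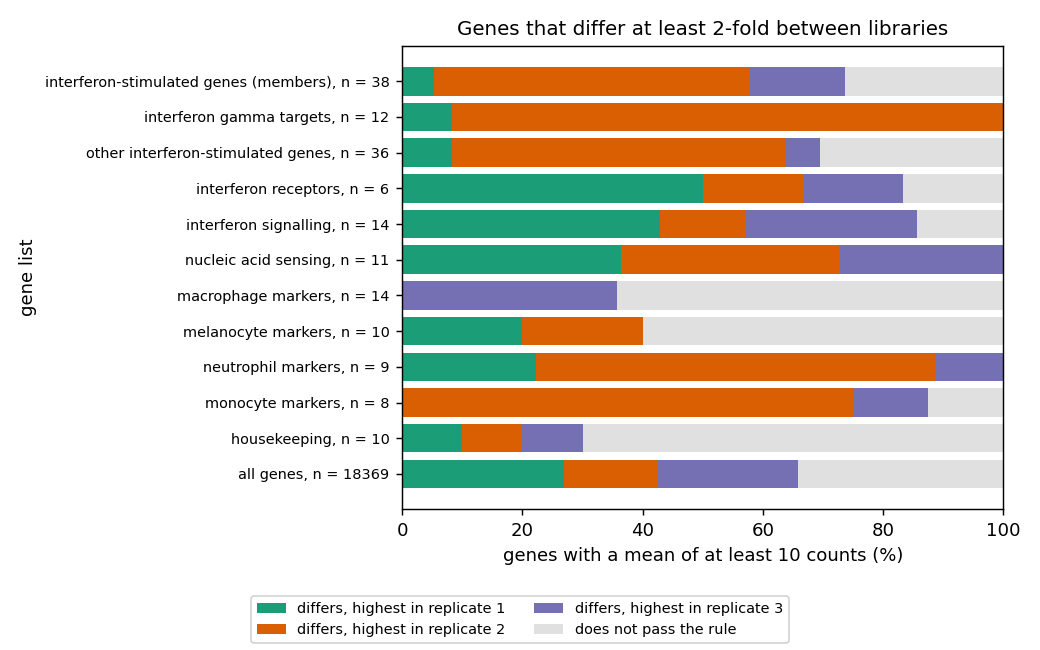
Share of each gene list, in percent of its genes with a mean of at least 10 counts, that differs between libraries by the rule, split by the library that is highest; grey is the share that does not pass, and n is the number of genes. Replicate 2 is highest in 52.6% of the members and in 15.7% of all genes, and its part is also wide for interferon gamma targets, other interferon-stimulated genes, neutrophil markers and monocyte markers.

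The genes around the members in the pathway were counted from lists of known function, with levels in TPM for replicates 1, 2 and 3. Of 14 interferon genes, 12 had no count in any library, among them Ifnb1, Ifng and all 7 interferon alpha genes listed. Ifnz had 2, 0 and 1 counts and Ifne had 0, 1 and 0 counts. None of the 14 listed genes reached 3 counts in any library, so 12 of them were not detected and 2 were near the limit at this depth.

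The receptors were detected. Ifnar2, a chain of the type I receptor, had 23.3, 20.3 and 10.6 TPM, and its partner Ifnar1 had 3.30, 1.69 and 5.31 TPM. Ifngr1, the ligand-binding chain for interferon gamma, was even with 17.6, 18.9 and 15.1 TPM, and Ifngr2 had 2.82, 5.98 and 4.64 TPM. Ifnlr1 and Il10rb, the chains of the type III receptor, had 7.44, 2.83 and 3.54 TPM and 22.2, 1.57 and 1.92 TPM. Of the 5 receptor genes that differed by the rule, 3 were highest in replicate 1 and 1 each in replicates 2 and 3. By TMM or DESeq2 size factors the split was 2, 2 and 1, and by CPM it was 2, 1 and 1. Ifnar2, Ifngr1, Ifnlr1 and Ifngr2 were above 1 TPM by limma (adjusted p 0.000341, 0.000109, 0.0266 and 0.0202), and Ifnar1 (0.077) and Il10rb (0.117) did not pass.

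Of 14 signalling genes, 6 were above 1 TPM and 12 differed, 6 of them with replicate 1 highest, 2 with replicate 2 and 4 with replicate 3. This split depended on the scaling: it was 3, 1 and 6 of 10 by CPM, and 4, 3 and 5 of 12 by TMM or DESeq2 size factors. Jak1, the kinase of all interferon receptors, was even with 18.6, 26.6 and 24.1 TPM. Pias1, an inhibitor of the pathway, had 42.3, 30.1 and 16.7 TPM, and Ptpn6, a phosphatase, had 11.9, 4.52 and 15.1 TPM.

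Of 12 genes of nucleic acid sensing, Tlr9 had no count, 7 were above 1 TPM, and all 11 with enough counts differed. They were spread over the libraries, with 4, 4 and 3 highest in replicates 1, 2 and 3. Unc93b1, the chaperone of endosomal Toll-like receptors, had 7.52, 6.72 and 27.5 TPM, the adaptor Myd88 had 18.9, 8.81 and 7.16 TPM, and the kinase Tbk1 had 18.3, 3.05 and 10.5 TPM.

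Genes known mainly as targets of interferon gamma were also mostly highest in replicate 2. Of 15, Cxcl9 had no count, 7 were above 1 TPM, and all 12 with enough counts differed, 11 with replicate 2 highest and 1 with replicate 1. Irgm1, a GTPase that guards vacuoles holding microbes, had 23.0, 119 and 13.8 TPM. Its relative Igtp had 13.8, 34.1 and 10.3 TPM, and Gbp2, a guanylate-binding protein, had 14.7, 33.5 and 9.77 TPM. In all 3 genes, replicate 2 was highest and replicate 3 lowest. Of 36 further interferon-stimulated genes, 17 were above 1 TPM and 25 differed, with 20 highest in replicate 2, 3 in replicate 1 and 2 in replicate 3. The 3 most abundant of these did not differ by the rule: Ifi30, a lysosomal thiol reductase, had 123, 62.8 and 71.5 TPM, Slfn2 had 49.4, 59.9 and 42.7 TPM, and Nmi had 44.5, 55.2 and 37.0 TPM. Of 10 housekeeping genes, 3 differed, 1 with each library highest.

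**Figure D4:**
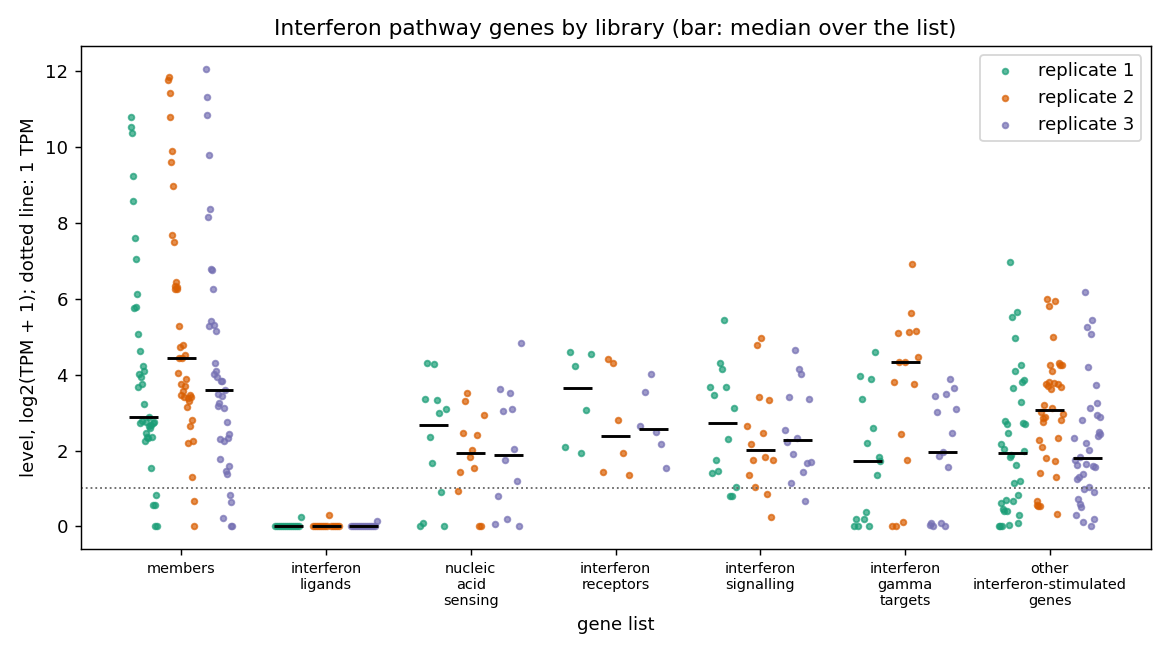
Level of each gene as log2(TPM + 1) in replicates 1, 2 and 3, for the members and for each list of pathway genes; black bars are the median of the list in a library and the dotted line marks 1 TPM. The median of the members is highest in replicate 2 (20.7 TPM), as is that of the interferon gamma targets and of the other interferon-stimulated genes, while interferon ligands lie at or near 0.

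Markers of cell types were summed to show what else differed between the libraries. Macrophage markers, of which 13 of 14 were above 1 TPM, summed to 8981, 5767 and 6550 TPM in replicates 1, 2 and 3, and melanocyte markers, with 7 of 11 above 1 TPM, to 549.954, 672.192 and 672.016 TPM. Markers of both labelled cell types were thus present in every library. Lyz2, named after its values were seen, carried the macrophage sum at 6490, 3513 and 3845 TPM; the other 13 summed to 2491, 2254 and 2705 TPM, and the list's medians were 118, 126 and 169 TPM. The melanocyte medians were in the members' order of libraries, at 8.06, 21.2 and 12.2 TPM, while the melanocyte sum was near equal in replicates 2 and 3. Of the 10 melanocyte markers with enough counts 4 differed by the rule, 2 with replicate 1 and 2 with replicate 2 highest. Neutrophil markers summed to 32.7, 406 and 147 TPM, with 6 of the 9 that had enough counts differing and highest in replicate 2, and monocyte markers to 8.40, 235 and 25.7 TPM, with 6 of 8 differing and highest in replicate 2. Chil3, named after its values were seen, gave 0.195, 189.9 and 3.13 TPM of the monocyte sum, and the other 7 summed to 8.20, 45.5 and 22.6 TPM. The neutrophil and monocyte sums were highest in replicate 2, as were the members' sum and the fibroblast sum given below. Of the 5 fibroblast markers 4 differed by the rule, 2 with replicate 2 highest and 1 each with replicates 1 and 3 highest. The part of these cell types and of melanocytes in the members' levels was not tested. Markers of plasmacytoid dendritic cells, known as strong makers of interferon, summed to 5.01, 8.01 and 14.6 TPM. Klk1 and Spib were at 0 in every library. Il3ra, named after its values were seen, gave 2.54, 2.89 and 6.51 TPM, and the other 7 summed to 2.47, 5.11 and 8.14 TPM. T and NK cell markers summed to 8.69, 9.59 and 8.51 TPM, with none of the 8 above 1 TPM by limma. Different genes made up these near-equal sums. Named after their values were seen, Nkg7 had 0, 2.96 and 5.76 TPM and Ncr1 had 7.37, 0 and 0 TPM. B cell markers summed to 879, 873 and 379 TPM with Ms4a1 and Pax5 at 0 in every library. Most of that sum was Ighm, named after its values were seen, at 725, 749 and 234 TPM, and the other 5 summed to 154, 124 and 145 TPM.

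Erythroid markers summed to 21791, 29998 and 51507 TPM, highest in replicate 3. Supporting epithelium markers summed to 2568, 1759 and 1812 TPM, hair cell markers to 519, 368 and 329 TPM, fibroblast markers to 475, 665 and 309 TPM, Schwann cell markers to 289.7, 116 and 224 TPM, neuron markers to 69.5, 69.0 and 305 TPM, and endothelial markers to 18.7, 31.7 and 33.997 TPM. The libraries thus also held transcripts typical of blood and of other inner ear cells, whose part in the members' levels was not tested.

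The order of levels between genes also rests on the gene length used by the authors. The length implied by count and FPKM equalled the summed length of all distinct annotated exons, overlapping exons counted again, within 1% for 91.9% of 25973 genes, and for 34 of 38 members. It was over 1.5 times the length of the exons taken once for 12 members, among them Ifi27, Ifi35, Rtp4 and Isg20. On exon-union lengths Ifi27 averaged 1066 TPM, against 758 TPM as deposited, and Rtp4 57.6 TPM, against 35.2 TPM. Genes with 1 transcript moved the other way, with Ifit3 at 915 TPM, against 1133 TPM, and Ifi27l2a at 2496 TPM, against 3087 TPM. Folds between libraries use the same length on both sides and depend on it only through the rescaling to a common total.

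**Figure D5:**
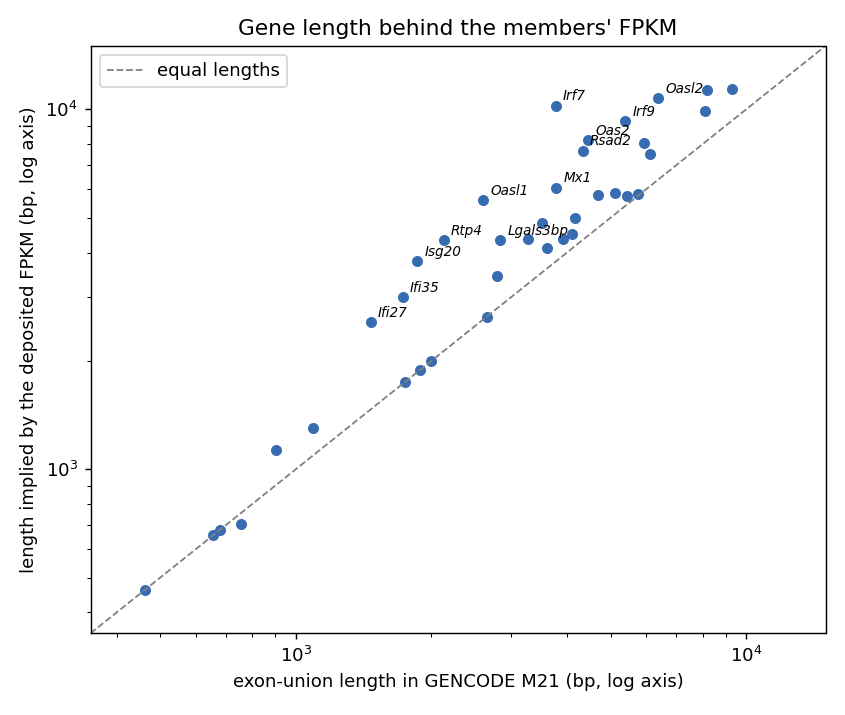
Gene length implied by the deposited count and FPKM against the length of the exons taken once, in bp on log axes, 1 point for each of the 38 members with a count; the dashed line marks equal lengths and the 12 members over 1.5 times are named. Irf7 lies farthest above the line at 2.71 times.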

How the data were processed

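Per the labels' protocols, polyadenylated RNA was copied and amplified with the SMART-Seq HT kit, and sequencing libraries were built with the KAPA Hyper Prep kit. The deposited table gives raw counts and FPKM per gene, per the file headers. HISAT2, StringTie, edgeR and GRCm39 are named, per the submitters' processing notes, without versions or roles. The handling of multi-mapping reads and strand is not given in the sources at hand.

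FPKM was rescaled to TPM (Python 3.11.15, pandas 2.3.3). The level test was limma 3.58.1 in R 4.3.3, an intercept-only fit of log2(TPM + 1) with trend, one-sided against 1 TPM, adjusted over 27265 genes, threshold 0.05. It was tested on simulated data in which some genes were set well below or above 1 TPM and every gene had the same spread between libraries. The simulation does not cover members with a wider spread, or how often levels just above 1 TPM are called. Library differences were described with exact Poisson intervals and a mean of at least 10 counts, and a library under 3 counts was set to 3. Exon lengths came from GENCODE M21 by gene ID and promoters from RefSeq, both on GRCm38. All members were named; of each pathway list, the 3 genes of highest mean TPM, all receptors and ligands with a count; 1 further gene of that rule is not reported here. Alternatives were pseudocounts, CPM, TMM (edgeR 4.0.16), DESeq2 1.42.0 size factors, filters, fold and left-out replicates. Members and lists were chosen with earlier results of these data known.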

Additional observations from a re-analysis of the deposited data

How the results depend on the processing

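The number of members above 1 TPM by limma was 31, and 28 to 34 under pseudocounts of 0.1 and 5, CPM, a filter to genes with a count in every library, no trend and exon-union lengths, the last chosen after seeing the data. It was 16 when all genes of the table were tested, and between 20 and 22 without 1 replicate. The share of all genes above 1 TPM was taken for the main setting only (37.6%). Whether the members' number moved more than that of all genes was not tested. Under at least 1 alternative 19 members changed their call and 19 did not. The number of members differing between libraries was 28 of 38, beside 65.8% of all genes, and 27 to 29 under other scalings or count filters. Of all genes, 63.9% to 64.8% differed under other scalings, 50.98% with no count filter and 61.1% with a mean of at least 50 counts. At 4-fold 17 members differed, beside 35.4% of all genes. Without replicates 1, 2 and 3 the members' number was 21, 15 and 23, beside 44.99%, 43.1% and 36.4% of all genes. It was thus lowest without replicate 2, while the share of all genes was lowest without replicate 3. With replicate 1 highest there were 2 members (27.0% of all genes), and 1 at 4-fold (13.9%) or with a mean of at least 50 counts. With replicate 3 highest there were 6 (23.2% of all genes), and 5 by TMM, 4 by DESeq2 size factors and 1 at 4-fold (12.4%). With replicate 2 highest there were 20, and 20 by CPM, 22 by TMM and 22 by DESeq2 size factors, beside 16.7% (CPM) and 20.7% (TMM) of all genes. Isg15, Ifitm2 and Parp14 had another highest library by TMM and DESeq2 size factors, and Parp14 and Dhx58 by CPM. TMM shifted all genes of a library alike, by -0.15, 0.15 and -0.00 (log2) in replicates 1, 2 and 3 relative to TPM. The cause of these changes was not tested. No paired analysis was possible because the libraries form 1 group. Depth limits the members under 50 counts in a library, such as Rsad2 in replicate 3 with 8 counts.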

Other observations

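Relatives of the members were looked up after the members' values were seen. Ifit1bl1, in the Ifit cluster, had 0, 102 and 0 counts in replicates 1, 2 and 3, at least 37.4-fold higher in replicate 2 than the floor of 3 counts per library, while its neighbour Ifit1bl2 was highest in replicate 1 with 5.64, 2.81 and 1.75 TPM. Oas1b, the gene known for resistance to flaviviruses in mice, had 2.53, 19.3 and 12.05 TPM, Oas1g had 7.28, 16.2 and 5.997 TPM, and Oas1c was even with 7.97, 5.39 and 9.13 TPM. Trim30d had 5.79, 17.0 and 4.49 TPM, with the same order of libraries as Trim30a. Ifitm6 was highest in replicate 3 with 0.204, 1.86 and 4.87 TPM. These genes have close copies, so the split of reads among them is uncertain.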
